A study of Mus musculus with 10 samples.

Results

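The 10 plasma protein genes described here are 10 of the 16697 gene entries in the table. They were chosen by symbol, and every entry whose symbol was Alb, Ttr, Ahsg, Saa1, Saa2, Orm1, Orm2, Hp, Hpx or Lcn2 was taken. All 10 symbols were found, each in a single entry. The rule uses no expression value, but the genes were chosen with earlier results of these data known. RNA-Seq of mouse liver covered normal livers (NL, n = 4), tumors driven by c-MYC (named c-MYC, n = 3) and tumors driven by c-MYC with FOXO1AAA (named c-MYC/FOXO1AAA, n = 3). FOXO1AAA is FOXO1 mutated so that AKT cannot inactivate it, and it carried a MYC tag. The plasmids reached hepatocytes through hydrodynamic tail vein injection, and the c-MYC tumors received the pT3-EF1α empty vector in place of FOXO1AAA. The genotype field reads WT for all samples, so the mice carried no engineered allele by their labels. The strain field of the labels reads C57BL/6 for all samples, whereas the extraction notes and the study's methods give FVB. The series' design text names c-MYC/MCL1 tumors and a drug treatment, which no sample label gives, and a figure legend of the study lists MCL1 among the plasmids of the control mice, whereas its methods and the extraction notes do not. If the c-MYC tumors did carry MCL1, FOXO1AAA and the absence of MCL1 cannot be told apart between the tumor groups. NL had no empty vector injection by its labels, so tumor formation and injection cannot be told apart in comparisons with NL. Nothing in the labels says that same-group libraries came from separate animals, and p-values then measure only the spread between these libraries. The libraries let active FOXO1 be compared with empty vector within c-MYC tumors, each against normal liver.

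Albumin, transthyretin and fetuin-A (Ahsg) are made by hepatocytes at high rates and are negative acute phase proteins, whose synthesis falls during inflammation. Serum amyloid A (Saa1, Saa2), the orosomucoids (Orm1, Orm2), haptoglobin (Hp), hemopexin (Hpx) and lipocalin 2 (Lcn2) are positive acute phase proteins in mice. Interleukin-6 type cytokines act through gp130 (Il6st) and STAT3, interleukin-1 and TNF act through NF-kB, and C/EBP factors bind many of the target promoters. The albumin and transthyretin genes depend on liver-enriched factors such as HNF4, C/EBP and FOXA.

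Levels are given as FPKM, fragments per kilobase of gene length scaled to the effective library size, after removal of the prior count that the authors had added. A fold change is on the deposited log2 scale, which keeps that prior and understates the change of low genes. Reads in listed genes ranged from 13123708 to 20547736 per library. Foxo1 checked the labels, with 70.1 to 95.6 FPKM in the 3 c-MYC/FOXO1AAA libraries and 5.16 to 7.86 FPKM in the other 7. The endogenous Myc gene had 4.10 to 22.2 FPKM in NL and 0.494 to 1.04 FPKM in the tumors. Whether the injected c-MYC can be counted at the mouse gene is not given in the sources used here, so Myc checks nothing. Scaling every library to the same FPKM total instead would raise the all-gene median of the log2 fold changes by 0.93 for c-MYC tumors against NL, by 0.17 between the tumor groups, and by 1.10 for c-MYC/FOXO1AAA tumors against NL. No member changed direction under it. All 10 members passed the filter on low values (at least 1 FPKM in at least 3 libraries), but Saa2 passed only because of its level in NL, so a difference from NL was built into its being tested. Some genes of the other lists also passed only through a single group and carry the same kind of limit. In tissue RNA, fewer cells of a type and less RNA per cell cannot be told apart.

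Most of these plasma protein transcripts were far lower in c-MYC tumors than in normal liver. In the tumors with FOXO1AAA most acute phase members were higher than in c-MYC tumors, and transthyretin was lower still. In c-MYC versus NL, 9 of the 10 members were lower and 0 were higher. These 9 include Saa2, which passed the filter only through NL. Over all 14017 genes tested, 23.6% were called lower and 24.5% higher. In c-MYC/FOXO1AAA versus c-MYC, 6 members were higher (Saa1, Saa2, Orm1, Orm2, Hp and Lcn2), against 15.9% of all genes. Transthyretin alone was lower, against 12.7% of all genes, and Alb, Ahsg and Hpx did not pass the test. In c-MYC/FOXO1AAA versus NL, 9 members, again with Saa2, were lower, against 26.6% of all genes, and 0 were higher, against 31.2%. The 9 called falls against NL ran from 4.63-fold for Orm2 to 82.8-fold for Ttr, with 70.2-fold for Alb, 26.3-fold for Ahsg, 15.9-fold for Hp and 15.1-fold for Hpx. The median log2 fold change of the members was -5.66, 3.25 and -3.96 in the 3 comparisons, and that of all tested genes was 0.08, 0.03 and 0.21. The test was limma's treat for a change above 1.5-fold with Benjamini-Hochberg adjustment over all genes, and a gene was called at an adjusted p under 0.05. The comparisons share libraries, so their values are set side by side and were not tested against each other.

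**Figure D1:**
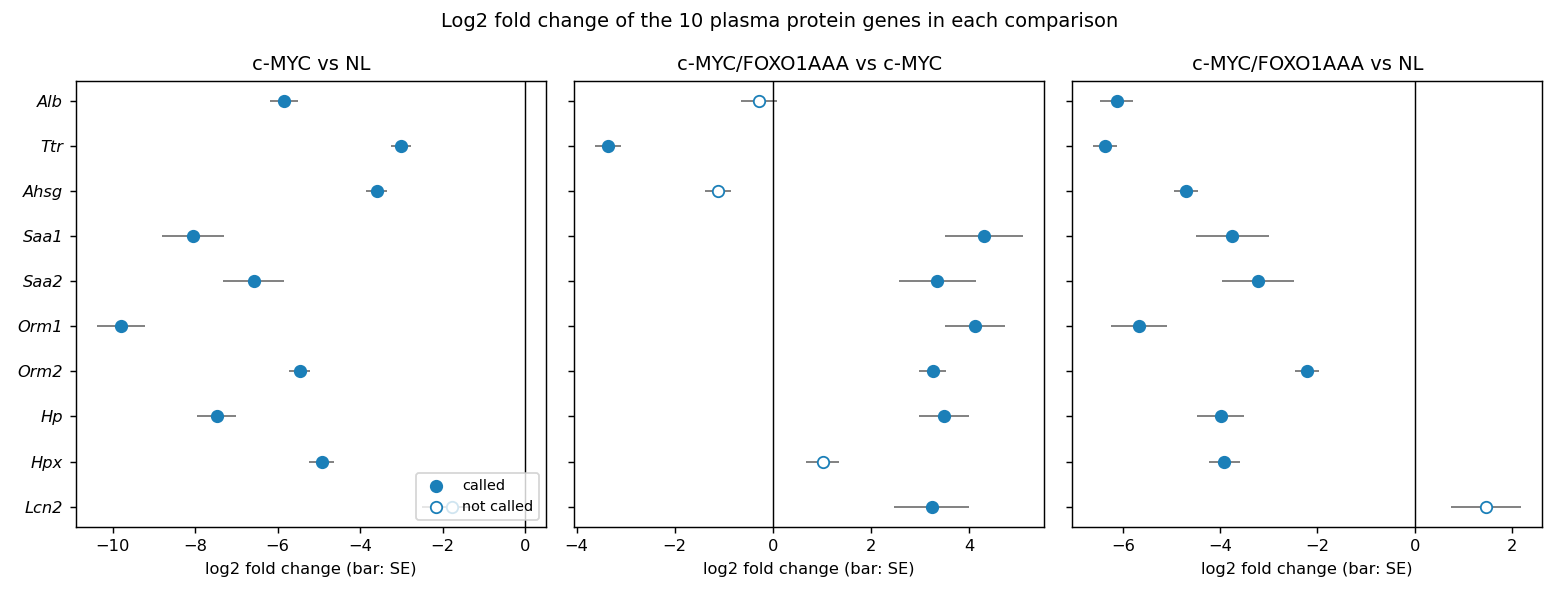
Log2 fold change (x axis) of each plasma protein gene (y axis) in the 3 comparisons, with points for the fit and bars for the SE. Filled points passed limma's treat test; Alb, Ahsg and Hpx are open in c-MYC/FOXO1AAA versus c-MYC, where Ttr lies at -3.36 and the 6 called acute phase genes lie between 3.24 and 4.30.

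Albumin, the main carrier and osmotic protein of plasma, had the highest level of the members in NL. Its gene lies at chr5:90460897-90476602 on the plus strand of GRCm38 (GENCODE M21). The 4 normal livers held 45210, 44599, 39557 and 43306 FPKM. The 3 c-MYC tumors held 512, 1435 and 562 FPKM, and the 3 c-MYC/FOXO1AAA tumors held 458, 910 and 554 FPKM. Every tumor lay far below every normal liver, while the 2 tumor groups overlapped and replicate 2 was the highest in each of them. Albumin was 57.9-fold lower in c-MYC than in NL (log2 fold change -5.86, SE 0.34, adjusted p 3.01e-07, limma treat). Between the tumor groups the log2 fold change was -0.28 (95% interval -1.09 to 0.53, adjusted p 1, limma treat), and it was 0.19 without c-MYC replicate 2.

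The albumin promoter is shown because it carries the recognition letters of C/EBP, a factor family described further on. The promoters were taken from RefSeq (GRCm38.p6), which held 7 of the 10 members (not Ttr, Orm1 or Hp), over 250 bases before and 50 bases after the gene start. Searched on both strands were the letters TTGCNNAA for C/EBP, GTAAACA for FOXO, TTCNNNGAA for STAT and CACGTG for E-boxes, and NF-kB by name. The C/EBP letters were in 7 of the 7 member promoters and in 10.8% of all 32851 promoters. The FOXO, STAT, NF-kB and E-box letters were in 0 of the 7, against 3.65%, 8.3%, 4.51% and 7.15% of all promoters. A match is a description of letters, and no match says only that those letters are not in the window. The printed stretch, chr5:90460620-90460869 on the plus strand, ends at the base before the RefSeq gene start, and capitals mark the C/EBP letters (bases -94 to -87, read on the opposite strand).
Alb: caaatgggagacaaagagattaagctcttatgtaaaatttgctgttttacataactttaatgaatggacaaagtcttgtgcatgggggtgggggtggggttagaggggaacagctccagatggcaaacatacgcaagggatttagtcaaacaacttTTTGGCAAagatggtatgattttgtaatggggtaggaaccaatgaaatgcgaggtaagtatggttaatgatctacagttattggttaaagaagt

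Transthyretin carries thyroid hormone and, with retinol-binding protein, vitamin A. It was the only member called lower both in c-MYC tumors and, beyond that, with FOXO1AAA. The normal livers held 8609, 8076, 7221 and 7763 FPKM. The c-MYC tumors held 1074, 1025 and 850 FPKM, and the c-MYC/FOXO1AAA tumors held 61.5, 91.8 and 154 FPKM. The 3 groups did not overlap, and the spread within each was small beside the steps between them. Transthyretin was 8.08-fold lower in c-MYC than in NL (log2 fold change -3.01, SE 0.25, adjusted p 6.06e-06) and 10.2-fold lower in the c-MYC/FOXO1AAA tumors than in the c-MYC tumors (-3.36, SE 0.26, adjusted p 7.89e-06, limma treat). Its mean was 12.4% of the NL mean in c-MYC tumors and 1.29% in c-MYC/FOXO1AAA tumors. Albumin, by comparison, was at 1.94% and 1.49%. The ratio of Alb to Ttr FPKM was 5.25 to 5.58 in NL, 0.477 to 1.40 in c-MYC and 3.60 to 9.92 in c-MYC/FOXO1AAA, so in 2 of the 3 c-MYC tumors transthyretin exceeded albumin per length.

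Fetuin-A (chr16:22891277-22899449, plus strand), an inhibitor of calcification, was also far lower in tumors. In normal liver the libraries held 8016, 7038, 7627 and 7979 FPKM of Ahsg. Tumors with c-MYC held 471, 937 and 573 FPKM, and the c-MYC/FOXO1AAA tumors held 201, 330 and 374 FPKM. All tumors lay below all normal livers, and the tumor groups did not overlap, with replicate 2 again the highest c-MYC tumor. Ahsg was 12.1-fold lower in c-MYC than in NL (log2 fold change -3.60, SE 0.25, adjusted p 1.35e-06). Between tumor groups its log2 fold change of -1.12 (SE 0.27, adjusted p 0.111, limma treat) did not pass the threshold, and it passed without c-MYC replicate 1 (-1.33, adjusted p 0.041) and with no minimum fold change (adjusted p 0.00441).

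Serum amyloid A is an apolipoprotein of acute phase high-density lipoprotein. Saa1 (chr7:46740497-46742980, minus strand) and Saa2 (chr7:46751790-46754313, plus strand) are neighboring genes. Of the 50-base words of the transcripts used for their length, 14.8% in Saa1 and 31.8% in Saa2 also occur in transcripts of other genes, each other's included, so how reads were divided between them is uncertain. The bases before the 2 gene starts are shown because they are nearly the same. In RefSeq the 250 bases before each start matched at 238 of 251 alignment columns (94.8%), the C/EBP letters among them. The Saa1 stretch is chr7:46742981-46743230 on the minus strand, and the Saa2 stretch, chr7:46751583-46751789 on the plus strand, stops before the gene start annotated in GENCODE M21. Capitals mark the C/EBP letters, at bases -182 to -175 of Saa1 and -183 to -176 of Saa2.
Saa1: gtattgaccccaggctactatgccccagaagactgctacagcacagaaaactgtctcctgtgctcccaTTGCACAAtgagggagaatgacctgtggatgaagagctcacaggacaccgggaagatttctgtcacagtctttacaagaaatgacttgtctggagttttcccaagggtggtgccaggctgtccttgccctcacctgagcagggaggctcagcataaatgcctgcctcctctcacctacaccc
Saa2: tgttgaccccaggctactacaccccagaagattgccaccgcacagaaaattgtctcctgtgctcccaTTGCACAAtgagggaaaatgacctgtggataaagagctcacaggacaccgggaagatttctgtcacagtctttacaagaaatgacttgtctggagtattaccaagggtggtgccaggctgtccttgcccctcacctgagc

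Saa1 nearly vanished in c-MYC tumors and was partly present in c-MYC/FOXO1AAA tumors. Replicates 1 to 4 of NL held 244, 69.8, 266 and 266 FPKM of Saa1. The 3 c-MYC libraries held 0.626, 0 and 1.97 FPKM, that is 7, 0 and 22 reads, and the 0 allows up to 0.261 FPKM (3 reads). The c-MYC/FOXO1AAA tumors held 8.93, 20.6 and 13.8 FPKM. The 3 groups did not overlap, NL replicate 2 stood well below the other normal livers, and such limits cover counting error only. Saa1 was 266-fold lower in c-MYC than in NL (log2 fold change -8.06, SE 0.75, adjusted p 7.55e-06) and 19.7-fold higher in the c-MYC/FOXO1AAA tumors than in the c-MYC tumors (4.30, SE 0.80, adjusted p 0.00256, limma treat). The latter change was 3.38 without c-MYC replicate 2 and 5.12 without c-MYC replicate 3, past the threshold in each, and it was not called by limma's voom on recovered reads, added after seeing the data (5.18, adjusted p 0.136). The change of the c-MYC tumors against NL was -7.13 and -8.87 without those libraries and -8.92 with voom. With a pseudocount of 1 FPKM the changes were -6.79 against NL and 3.12 between the tumor groups. Relative to NL, Saa1 in c-MYC/FOXO1AAA was 13.5-fold lower (adjusted p 0.00204, limma treat).

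Saa2 moved in the same directions at lower counts. The 4 NL libraries held 13.0, 4.43, 14.9 and 16.0 FPKM, and the c-MYC tumors held 1, 0 and 17 reads, or 0.0223, 0 and 0.379 FPKM, where the 0 allows up to 0.0652 FPKM. The c-MYC/FOXO1AAA tumors held 0.748, 1.99 and 0.918 FPKM, from 44 to 145 reads. The groups did not overlap, and NL replicate 2 was again the lowest normal liver. Saa2 was 95.9-fold lower in c-MYC than in NL (log2 fold change -6.58, SE 0.74, adjusted p 3.27e-05) and 10.2-fold higher in the c-MYC/FOXO1AAA tumors than in the c-MYC tumors (3.35, SE 0.79, adjusted p 0.0127, limma treat). This last call was lost without c-MYC replicate 1 (3.01, adjusted p 0.0504), c-MYC replicate 2 (2.74, 0.0507) or c-MYC/FOXO1AAA replicate 2 (2.95, 0.052), with voom (4.49, 0.1) and with a pseudocount of 1 FPKM (0.94, 0.55), and the change was 2.76 with a pseudocount of 0.1 FPKM and 4.31 without c-MYC replicate 3. Against NL the c-MYC tumors were at -5.97 without c-MYC replicate 2 at -7.54 without c-MYC replicate 3, at -3.42 with a pseudocount of 1 FPKM, at -5.93 with a pseudocount of 0.1 FPKM and at -7.72 with voom. The c-MYC/FOXO1AAA tumors were at -3.23 against NL, and at -2.48 with a pseudocount of 1 FPKM. Since Saa2 passed the filter only through NL, a difference from NL was built into its being tested. The gene model behind the FPKM was 2443 bases long for Saa2 and 609 for Saa1, and the read ratio of Saa1 to Saa2 was 3.93 to 4.67 in NL and 2.58 to 3.75 in c-MYC/FOXO1AAA.

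The orosomucoids are plasma glycoproteins that bind basic and lipophilic compounds. Orm1 (chr4:63344560-63348163) and Orm2 (chr4:63362449-63365878) also share sequence, with 20.4% and 22.7% of their 50-base words found in other genes, so single values carry the same doubt. The stretch before Orm2, chr4:63362199-63362448 on the plus strand, is shown because its C/EBP letters (capitals, bases -120 to -113) read as a match on both strands.
Orm2: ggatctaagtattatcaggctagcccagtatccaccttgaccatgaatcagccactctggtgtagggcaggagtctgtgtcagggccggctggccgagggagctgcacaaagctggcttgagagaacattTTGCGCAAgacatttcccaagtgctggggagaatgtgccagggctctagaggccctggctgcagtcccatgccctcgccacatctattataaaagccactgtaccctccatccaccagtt

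Orm1 had the largest fitted fall of the 10 members in c-MYC tumors. Levels in NL were 1168, 1088, 1412 and 1168 FPKM. The c-MYC tumors held 1.20, 0.274 and 4.14 FPKM, that is 17, 4 and 59 reads, and the c-MYC/FOXO1AAA tumors held 20.4, 25.9 and 24.1 FPKM. The c-MYC tumors differed among themselves, replicate 3 being the highest and replicate 2 the lowest, whereas the c-MYC/FOXO1AAA tumors lay close together between the other groups. Orm1 was 890-fold lower in c-MYC than in NL (log2 fold change -9.80, SE 0.58, adjusted p 2.67e-07) and 17.4-fold higher in the c-MYC/FOXO1AAA tumors than in the c-MYC tumors (4.12, SE 0.62, adjusted p 0.000666, limma treat). The latter was 3.29 without c-MYC replicate 2 and 4.95 without c-MYC replicate 3, and the fall in c-MYC was -8.97 and -10.63 without them. With a pseudocount of 1 FPKM the changes were -8.95 and 3.32. The level with FOXO1AAA remained at 1.94% of the NL mean.

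Orm2 was the less abundant paralog in NL. The normal livers held 15.7, 13.0, 18.9 and 14.4 FPKM. Tumors with c-MYC held 2, 2 and 5 reads, or 0.141, 0.137 and 0.351 FPKM, and the c-MYC/FOXO1AAA tumors held 2.88, 2.59 and 4.34 FPKM. The groups did not overlap. The c-MYC values rest on 2 to 5 reads, and the deposited log2 values keep a prior count of 2, so their small spread says little about precision. Orm2 was 44.3-fold lower in c-MYC than in NL (log2 fold change -5.47, SE 0.25, adjusted p 3.68e-08) and 9.56-fold higher in the c-MYC/FOXO1AAA tumors than in the c-MYC tumors (3.26, SE 0.27, adjusted p 1.06e-05, limma treat). With a pseudocount of 1 FPKM these changes were -3.76 and 1.80, and with voom the former was -6.09, all called. Orm2 stood at 21.1% of the NL mean with FOXO1AAA. The ratio of Orm1 to Orm2 reads was 74.6 to 83.7 in NL and 5.54 to 9.98 in c-MYC/FOXO1AAA, which do not overlap.

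Haptoglobin (chr8:109575128-109579172, minus strand) binds free hemoglobin, and hemopexin (chr7:105591613-105600137, minus strand) binds free heme. In normal liver the libraries held 4437, 2195, 3601 and 4261 FPKM of Hp. The 3 c-MYC libraries held 13.9, 11.6 and 45.9 FPKM, and the c-MYC/FOXO1AAA tumors held 170, 375 and 166 FPKM. As with Saa1 and Orm1, replicate 3 was the highest c-MYC tumor and NL replicate 2 the lowest normal liver, and the groups did not overlap. Hp was 178.7-fold lower in c-MYC than in NL (log2 fold change -7.48, SE 0.48, adjusted p 5.19e-07) and 11.2-fold higher in the c-MYC/FOXO1AAA tumors than in the c-MYC tumors (3.49, SE 0.51, adjusted p 0.000677, limma treat). Without c-MYC replicate 3 the latter was 4.10 and the former -8.10. Hp stood at 0.656% of the NL mean in c-MYC and at 6.53% in c-MYC/FOXO1AAA.

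Hemopexin also fell in c-MYC tumors, and its change between tumor groups was not called. Replicates 1 to 4 of NL held 4070, 3119, 3797 and 4018 FPKM of Hpx. The c-MYC tumors held 67.4, 183 and 147 FPKM, and the c-MYC/FOXO1AAA tumors held 210, 348 and 205 FPKM. The tumor groups did not overlap, but the highest c-MYC tumor and the lowest c-MYC/FOXO1AAA tumor were close. Hpx was 30.6-fold lower in c-MYC than in NL (log2 fold change -4.94, SE 0.31, adjusted p 6.37e-07). Between tumor groups its change of 1.02 (95% interval 0.27 to 1.76, adjusted p 0.301, limma treat) did not reach the threshold, and of the alternatives run only that with no minimum fold change called it (adjusted p 0.0249).

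Lipocalin 2 (chr2:32384633-32388252, minus strand) binds bacterial siderophores and is made by hepatocytes and neutrophils. It was the only member not called in either comparison with NL. The 4 NL libraries held 14.8, 1.85, 10.4 and 15.1 FPKM, the c-MYC tumors 1.31, 2.38 and 3.93 FPKM, and the c-MYC/FOXO1AAA tumors 14.7, 49.6 and 16.4 FPKM. NL replicate 2 lay among the c-MYC tumors, and the c-MYC/FOXO1AAA tumors overlapped with NL but not with c-MYC. Lcn2 was 9.41-fold higher in the c-MYC/FOXO1AAA tumors than in the c-MYC tumors (log2 fold change 3.24, SE 0.77, adjusted p 0.0143, limma treat), a call lost without c-MYC replicate 1 (2.85, adjusted p 0.0582) or c-MYC/FOXO1AAA replicate 2 (2.68, 0.0595), and with voom (3.34, 0.0512). In c-MYC versus NL its change of -1.76 (SE 0.72, adjusted p 0.133) did not pass, but without NL replicate 2 it was -2.45 (adjusted p 0.00582). Against NL the c-MYC/FOXO1AAA tumors were at 1.47 (95% interval -0.14 to 3.08, adjusted p 0.205, limma treat), at 0.78 without NL replicate 2, and at 2.57 (adjusted p 0.0166) when libraries were scaled to the same FPKM total.

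**Figure D2:**
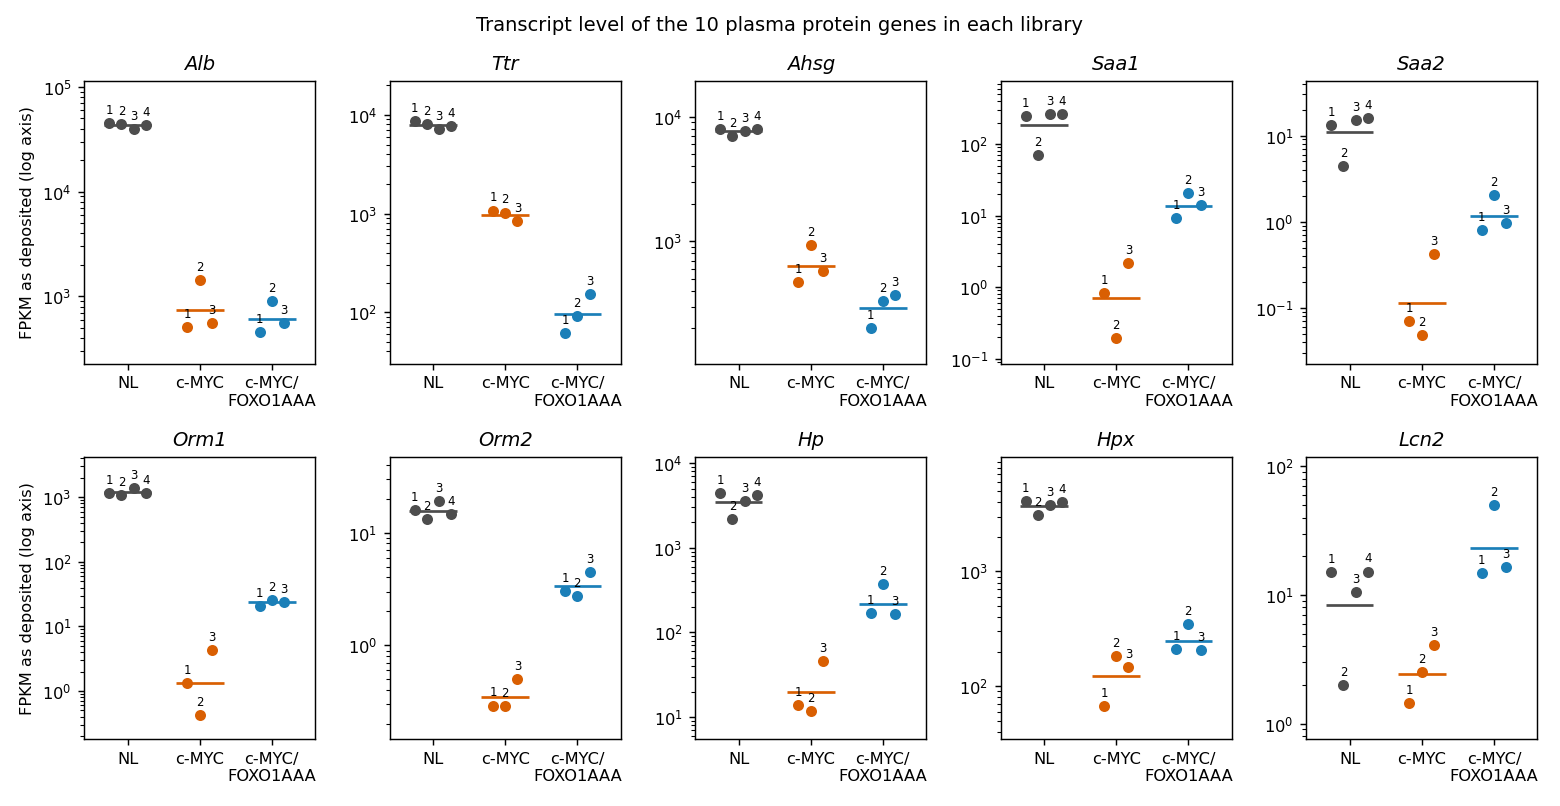
FPKM on a log axis (y) of each plasma protein gene in NL, c-MYC and c-MYC/FOXO1AAA libraries (x), with replicate numbers above the points and lines at the group means of log2 values. The deposited values are drawn, so 0 reads sit at the prior count; Saa1, Saa2, Orm1, Orm2 and Hp form 3 separate levels with c-MYC lowest, and Ttr forms 3 separate levels with c-MYC/FOXO1AAA lowest.

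Some libraries were at the extreme of their group for several members. NL replicate 2 was the lowest normal liver for 8 members, all but Alb and Ttr. With that library left out, each member other than Lcn2 kept its direction and its side of the threshold in both comparisons with NL. Among c-MYC tumors, replicate 3 was the highest for 6 members (Saa1, Saa2, Orm1, Orm2, Hp and Lcn2) and replicate 2 for 3 others (Alb, Ahsg and Hpx), which was also the lowest for Saa1, Saa2, Orm1, Orm2 and Hp. Among c-MYC/FOXO1AAA tumors, replicate 2 was the highest for 7 members and replicate 1 the lowest for 7.

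The share of these genes in the transcriptome was lower in every tumor than in every normal liver. Together they made up 6.25% ± 0.253 (SD, n = 4) of the FPKM total in NL, 0.468% ± 0.161 in the c-MYC tumors (SD, n = 3) and 0.318% ± 0.0990 (SD, n = 3) in those with FOXO1AAA. The tumor groups overlapped in this share, from 0.365% to 0.654% and from 0.237% to 0.428%. Of the summed level of the members, albumin made up 63.9% in NL. In c-MYC tumors transthyretin (37.2%) was ahead of albumin (31.7%) and fetuin-A (25.0%), and haptoglobin was at 0.901%. In c-MYC/FOXO1AAA tumors albumin was at 39.9%, hemopexin and haptoglobin at 15.9% and 14.8%, and transthyretin at 6.38%. The ratio of Hp to Alb FPKM was 0.0492 to 0.0984 in NL, 0.00808 to 0.0817 in c-MYC and 0.299 to 0.411 in c-MYC/FOXO1AAA, above every other library.

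By mean level, the order in NL was Alb, Ttr, Ahsg, Hpx, Hp, Orm1, Saa1, Orm2, Saa2 and Lcn2. In c-MYC tumors Ttr stood ahead of Alb, and Lcn2 ahead of Orm1, Saa1, Orm2 and Saa2. In c-MYC/FOXO1AAA tumors Ttr stood behind Alb, Ahsg, Hpx and Hp, in that order. Neighbors whose libraries overlapped in NL included Ttr and Ahsg, Hpx and Hp, Orm2 and Saa2, and Saa2 and Lcn2.

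The genes with the most similar pattern over the 10 libraries were found for each member. Nearness was the root mean square difference of centered log2 FPKM over the 10 libraries, among 8107 genes whose mean reached 10 FPKM in a group. Nearest to Alb was Slc26a1 (0.20), to Ttr Entpd8 (0.20) and to Ahsg C4b (0.20). Nearest to Saa1 and to Hp was Lrg1 (0.52 and 0.36), itself an acute phase glycoprotein, and nearest to Saa2 was Hp (0.56). Orm1 was nearest to Cyp7b1 (0.25), Orm2 to Ube2e2 (0.27) and Hpx to Qsox1 (0.31), whereas the gene nearest to Lcn2, Crip2, was farther away (0.86). These are descriptions over libraries that share their groups.

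Other acute phase proteins split in the same comparison. Of 25, 17 were lower and 2 higher in c-MYC than in NL, and 8 were higher and 8 lower in the c-MYC/FOXO1AAA tumors than in the c-MYC tumors. Serpina3n, a protease inhibitor, was at 318 ± 27.8 FPKM in NL, 2.59 ± 0.981 in c-MYC and 85.5 ± 16.3 in c-MYC/FOXO1AAA (SD, n = 4, 3 and 3), with log2 fold changes of -6.99 (SE 0.25) and 5.08 (SE 0.27, adjusted p 3.3e-07, limma treat). Its relative Serpina3m changed by -10.27 and 3.87, and Lrg1 by -7.78 and 3.57. Hepcidin (Hamp), the iron-regulating hormone, had a log2 fold change of -8.99 in c-MYC, and its change of 1.74 with FOXO1AAA did not pass (adjusted p 0.0726, limma treat). Fibrinogen chains, like transthyretin, were lower with FOXO1AAA. Fga was at 785 ± 96.2 FPKM in c-MYC (SD, n = 3) and at 66.0 ± 29.8 in c-MYC/FOXO1AAA (SD, n = 3), and its log2 fold change was -3.69 (SE 0.33, adjusted p 1.85e-05, limma treat). Named after their values were seen, Fgb and Fgg changed by -3.14 and -3.56 in that comparison, C3 by -2.48, and the third serum amyloid gene Saa3 by 2.44.

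Plasma carriers and inhibitors outside the members were mostly lower in each step. Of 16, 15 were lower and 1 higher in c-MYC than in NL, and 9 were lower and 3 higher in the c-MYC/FOXO1AAA tumors than in the c-MYC tumors. The exception in c-MYC was Afp, the fetal counterpart of albumin, which lies next to Alb in the same gene family. Afp was at 73.4 ± 69.3 FPKM in NL (SD, n = 4), 2098 ± 604 in the c-MYC tumors and 44.9 ± 58.3 in c-MYC/FOXO1AAA (SD, n = 3 each), with log2 fold changes of 5.42 (SE 1.03, adjusted p 0.00153) and -6.53 (SE 1.10, adjusted p 0.00109, limma treat). Mug1, Azgp1, Hrg and Pzp had the largest falls in c-MYC, with log2 fold changes of -9.07, -8.82, -6.35 and -6.18. Ambp and Itih2 fell with FOXO1AAA (-3.20 and -2.97), while Serpina7, the thyroxine-binding globulin, rose by 2.92. Retinol-binding protein (Rbp4), the partner of transthyretin and named after its values were seen, fell in both steps (-3.39 and -2.09).

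**Figure D3:**
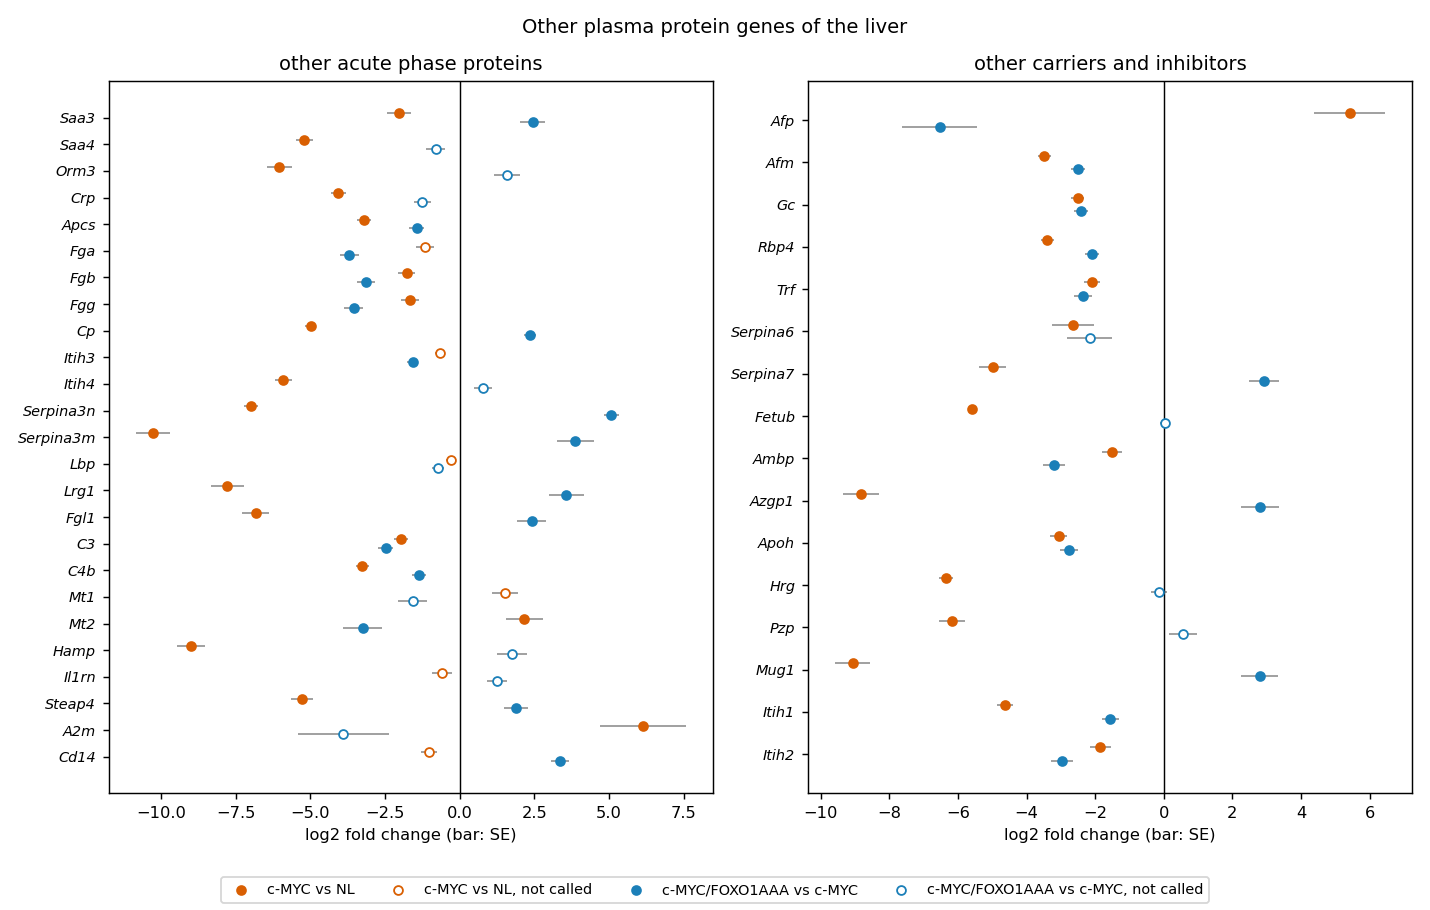
Log2 fold change (x axis) of 25 other acute phase proteins and 16 other carriers and inhibitors (y axis), in c-MYC versus NL (orange) and c-MYC/FOXO1AAA versus c-MYC (blue), with bars for the SE. Filled points passed the test; Serpina3n lies at -6.99 and 5.08, and Afp at 5.42 and -6.53.

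The signaling genes of the acute phase response were followed from ligand to factor. Over all tested genes, 23.6% were lower and 24.5% higher in c-MYC than in NL. Between the tumor groups 12.7% were lower and 15.9% higher with FOXO1AAA. Of 8 ligands, 4 had an entry, and the only 1 tested, Il1b, was at 1.10 ± 0.265 FPKM in NL (SD, n = 4), 0.332 ± 0.131 in the c-MYC tumors and 0.412 ± 0.188 in c-MYC/FOXO1AAA (SD, n = 3 each). Its fall in c-MYC was called (log2 fold change -1.52, adjusted p 0.0238, limma treat), and its change with FOXO1AAA was 0.22. Il1b passed the filter only through NL, so a difference from NL was built into its being tested. Of 8 receptors, 6 were lower and 1 higher in c-MYC than in NL, and 3 were higher and 2 lower in the c-MYC/FOXO1AAA tumors than in the c-MYC tumors. Il6st, the shared gp130 chain, was at 19.9 ± 1.05 FPKM in NL, 3.65 ± 0.777 in c-MYC and 28.0 ± 7.04 in c-MYC/FOXO1AAA, a rise of 2.93 between the tumor groups (SE 0.19, adjusted p 2.56e-06, limma treat). Il1r1 rose by 2.32 and the oncostatin M receptor Osmr by 2.15, while Il22ra1 and Il1rap fell (-4.19 and -1.15). Osmr, 1 of the 3 called higher, passed the filter only through c-MYC/FOXO1AAA, so a rise there was built into its being tested. Il22ra1, the 1 receptor called higher in c-MYC than in NL, passed only through c-MYC. Both of its called changes were thus built into its being tested. The interleukin-6 receptor chain Il6ra was at 32.1, 7.22 and 10.8 FPKM in the 3 groups.

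Among 7 transducers, Myd88 and Stat3 were lower in c-MYC (log2 fold changes -2.37 and -1.24). Jak1 was the only 1 of the 7 called between the tumor groups, against 15.9% of all genes called higher. Its rise was 1.49 (SE 0.19, adjusted p 0.00156, limma treat). Among 3 inhibitors tested, 2 were lower and 1 was higher in c-MYC than in NL, and 1 was higher and 0 lower with FOXO1AAA. Tnfaip3, which passed the filter only through c-MYC, changed by 1.61 (adjusted p 0.0383, limma treat) and then by -1.68 (not called). Nfkbia changed by -0.89 (called) and -0.18 (not called). Socs3, a target and brake of STAT3 signaling, fell by 1.85 in c-MYC and rose by 1.39 with FOXO1AAA (adjusted p 0.0123, limma treat). Its level was 5.98 FPKM in NL, 1.63 in c-MYC and 4.37 in c-MYC/FOXO1AAA.

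Of 15 transcription factors, 8 were lower and 2 higher in c-MYC than in NL, against 23.6% and 24.5% of all genes. In the c-MYC/FOXO1AAA tumors 5 were lower and 2 higher than in the c-MYC tumors, against 12.7% and 15.9% of all genes. The 2 higher with FOXO1AAA were Cebpd, a C/EBP factor induced in the acute phase, and Nfkb1. They rose by 2.71 (SE 0.50, adjusted p 0.00403) and 1.17 (SE 0.15, adjusted p 0.00605, limma treat). Cebpd was at 3.82 ± 1.58 FPKM in NL (SD, n = 4), 0.575 ± 0.380 in the c-MYC tumors and 3.34 ± 0.402 in c-MYC/FOXO1AAA (SD, n = 3 each). Cebpa, the C/EBP factor of resting hepatocytes, fell in both steps, from 456 ± 42.6 FPKM in NL to 136 ± 10.4 in c-MYC and 27.4 ± 10.1 in c-MYC/FOXO1AAA. The other C/EBP factor, Cebpb, fell by 2.17 in c-MYC, and its tumor levels were 58.3 ± 12.6 and 64.0 ± 6.17 FPKM.

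Several liver-enriched factors were lower with FOXO1AAA. Hnf4a was at 183 ± 14.3 FPKM in NL, 94.3 ± 15.5 in c-MYC and 7.15 ± 3.47 in c-MYC/FOXO1AAA, a log2 fold change of -3.81 (SE 0.27, adjusted p 3.13e-06, limma treat). Onecut1 and Foxa3 fell too (-4.24 and -3.21). In the same comparison transthyretin was called lower and albumin was not called, and the relation of these factors to either was not tested.

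**Figure D4:**
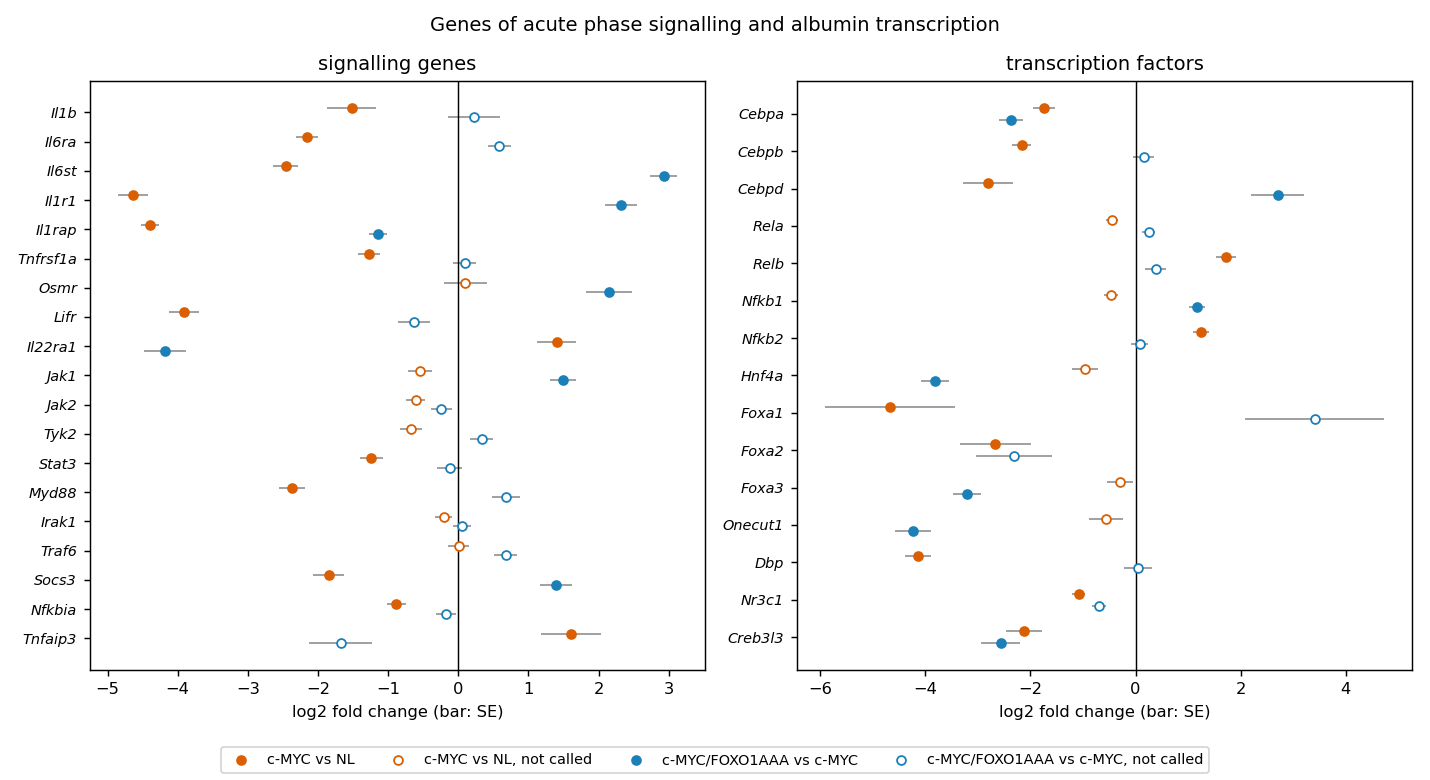
Log2 fold change (x axis) of the tested signaling genes and transcription factors (y axis), in c-MYC versus NL (orange) and c-MYC/FOXO1AAA versus c-MYC (blue), with bars for the SE. Filled points passed the test. In blue, Il6st, Il1r1, Osmr, Jak1, Socs3, Cebpd and Nfkb1 are filled to the right. Onecut1, Hnf4a, Foxa3, Cebpa, Creb3l3, Il22ra1 and Il1rap are filled to the left.

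Receptors that clear or take up these proteins were followed as well. Of 6 tested, Lrp1 (hemopexin with heme), Fcgrt (which recycles albumin) and Cd163 (haptoglobin with hemoglobin) fell in c-MYC (log2 fold changes -3.35, -1.88 and -1.91). Cd163 passed the filter only through NL, so a difference from NL was built into its being tested. None of the 6 was called between the tumor groups by limma treat, and 1 (Slc22a17, a lipocalin 2 receptor) had an unadjusted p under 0.05. Slc22a17 passed the filter only through c-MYC/FOXO1AAA.

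Markers of hepatocytes were far lower in tumors. All 15 were lower in c-MYC than in NL by the same test, and 8 were lower and 4 higher in the c-MYC/FOXO1AAA tumors than in the c-MYC tumors. The 4 that rose included Tdo2 (3.60), which degrades tryptophan, and Cyp2c29 (3.40), whereas Hpd and Cps1 fell (-3.27 and -3.15). In c-MYC tumors the mean levels of the 15 ran from 0.0390% to 18.3% of NL, and in c-MYC/FOXO1AAA tumors from 0.318% to 3.39%. The members ran from 0.155% to 24.1% and from 1.29% to 255%. The summed FPKM of the hepatocyte markers was 69180 to 76950 in NL, 4455 to 5162 in c-MYC and 686 to 1991 in c-MYC/FOXO1AAA. The part of the hepatocyte signal in the members' changes was not tested.

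Markers of other cells were set beside the members. Of 13 neutrophil markers, 4 had an entry and 2 were tested, and neither was called by limma treat or had an unadjusted p under 0.05 in any comparison. The summed level of the 4 was 1.06 to 4.77 FPKM in NL, 1.68 to 2.70 in c-MYC, 0.944 and 0.964 in 2 of the c-MYC/FOXO1AAA tumors and 16.0 in replicate 3. Lcn2 was at 14.7, 49.6 and 16.4 FPKM in c-MYC/FOXO1AAA replicates 1 to 3, where the neutrophil sum was 0.964, 0.944 and 16.0 FPKM. Ltf, a neutrophil granule gene, had 0 reads in every NL library. Of 10 macrophage markers, Cd68 rose and Clec4f, Vsig4 and Marco fell in c-MYC, and Clec4f rose while Timd4 and Cd5l fell with FOXO1AAA. Marco passed the filter only through NL, so a difference from NL was built into its being tested. The summed FPKM of the 10 was 270 to 488 in NL, 233 to 306 in c-MYC and 107 to 185 in c-MYC/FOXO1AAA. Of 4 cholangiocyte markers tested, Krt7 and Epcam rose and Spp1 fell in c-MYC, and Krt19 and Spp1 rose and Epcam fell with FOXO1AAA, the sum being 19.8 to 27.6, 17.3 to 32.1 and 29.9 to 37.8 FPKM. Krt7 passed the filter only because of its level in c-MYC, and Krt19 only because of its level in c-MYC/FOXO1AAA. A rise in that group was thus built into the testing of each. The part of these cell markers in the members' changes was not tested.

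**Figure D5:**
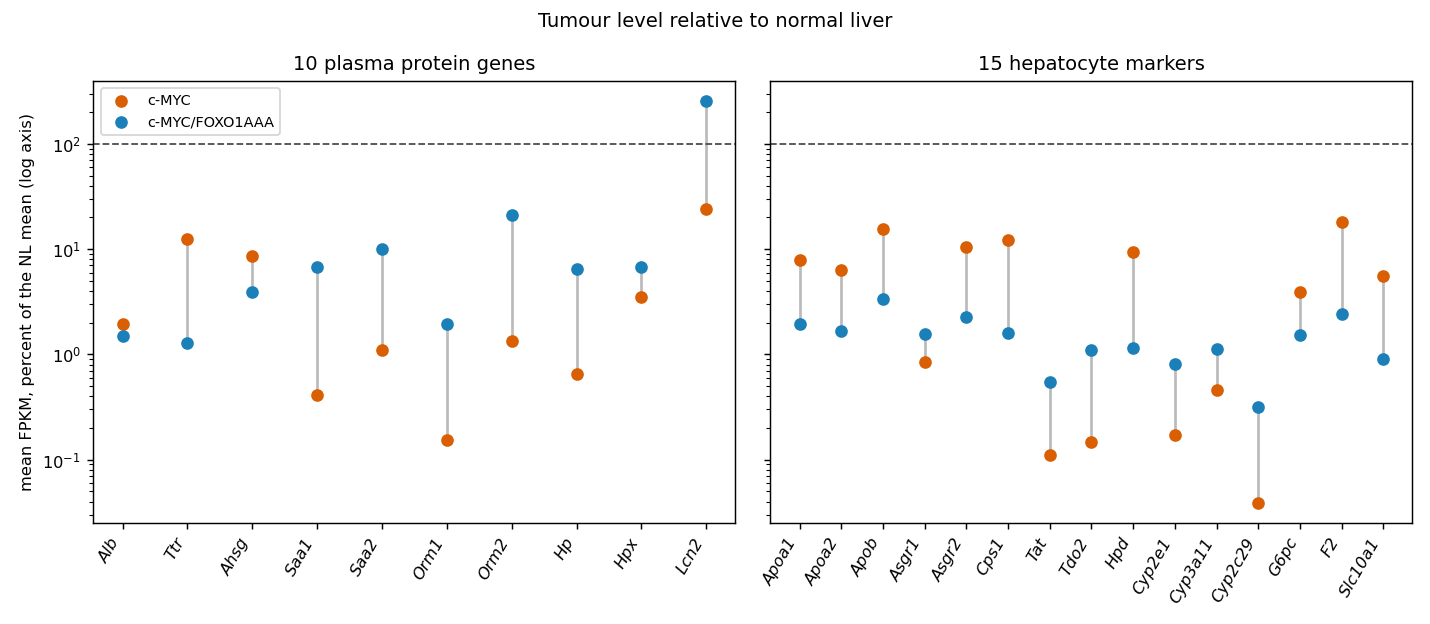
Mean FPKM as percent of the NL mean (y axis, log scale) in c-MYC (orange) and c-MYC/FOXO1AAA (blue) tumors for the 10 plasma protein genes and 15 hepatocyte markers (x axis), with the dashed line at NL. Ttr is at 12.4% and 1.29% and Lcn2 at 24.1% and 255%, and all hepatocyte markers lie below 20% in both tumors.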

How the data were processed

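RNA-Seq libraries of 4 normal livers, 3 c-MYC and 3 c-MYC/FOXO1AAA tumors were made after polyA capture or rRNA removal. The authors deposited log2 FPKM per gene with a prior count of 2. The submitters' processing notes name FastQC 0.11.7 and GRCm38, and the aligner and counter are not given in the sources used here. Of the entries, 372 without a symbol or value were left out. Since 99.988% of genes gave whole reads (within 0.001 reads) for 1 gene length, reads and FPKM without the prior were recovered, and 2 genes had several lengths or none.

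The deposited log2 FPKM values were fitted with limma 3.58.1 (statmod 1.5.0, R 4.3.3), with a mean per group and 1 spread for all 10 libraries. The test was treat, two-sided, for a change above 1.5-fold, with trend and robust estimation, over genes of at least 1 FPKM in at least 3 libraries. Calls had a Benjamini-Hochberg adjusted p under 0.05. The script was tested on simulated data. Replicate libraries differed beyond sampling noise (chi-square per degree of freedom 8.66 to 31.59), so each counted as 1 sample. Limits for a count of 0 (3 reads) cover counting error only. limma's voom on recovered reads, added after seeing the data, called 6608 genes for c-MYC against NL, 4343 between the tumor groups and 8128 for c-MYC/FOXO1AAA against NL. Alternatives tried were other scalings, pseudocounts, filters, fold thresholds and spread estimates, a replicate block, fits on 2 groups and leaving out each library.

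The members and gene lists were chosen with earlier results of these data known. All members were named. From each other list, the rule allowed naming the 4 called genes with the largest change for c-MYC against NL and the 4 between the tumor groups. Signaling genes and factors could be named singly. Not all genes that the rule allowed are named in the text. Some genes of the factor list are not reported here and were left out of its counts.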

Additional observations from a re-analysis of the deposited data

Results flagged for a closer look

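Saa1 in NL replicate 2 stood apart from the other normal livers. It was the lowest of 4, at 69.8 FPKM, and its gap to the next library was too large a share of the group's range by Dixon's criterion at the 95% level. Of 10 members tested in this way in NL, 1 had such a library, and chance gives about 1 in 20.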

How the results depend on the processing

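Of 560 recalculated member results, 544 kept their direction and side of the threshold, 9 lost and 6 gained a call, and 1 reversed. The reversal was Alb in c-MYC/FOXO1AAA versus c-MYC, at 0.19 without c-MYC replicate 2 (leave-one-out range -0.56 to 0.19). Members higher in c-MYC/FOXO1AAA versus c-MYC numbered 3 with voom (added after seeing the data) instead of 6, and members lower numbered 2 with no fold threshold and 1 to 2 when single libraries were left out. Scaling to the same FPKM total gave 1 member higher in c-MYC/FOXO1AAA versus NL instead of 0. Genes of the other lists higher in c-MYC versus NL numbered 10, but 18 with the same FPKM total and 6 with a mean FPKM of at least 5 or a threshold of 2-fold. In c-MYC/FOXO1AAA versus NL they numbered 6, but 19, 3 and, with no fold threshold, 11. The members made up 8.04% of recovered reads in NL, against 6.25% of FPKM. The replicate numbers gave no sign of pairing. Deviations of same-numbered libraries correlated at -0.0398 to 0.0272, and those of different-numbered libraries at -0.0719 to 0.07. With so few libraries per group this cannot exclude pairing. With a replicate block no member call changed, Alb was at -0.28 between tumor groups, and 6407, 3852 and 7810 genes were called in the 3 comparisons. Over all genes, no fold threshold gave 10432 and 7688 calls in the first pair of comparisons, and a mean of at least 5 FPKM gave 2280 and 5211 in the latter pair. The cause of these shifts was not tested. Saa1, Saa2, Orm1 and Orm2 in c-MYC tumors rest on 0 to 59 reads, which limits the precision of their folds.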
